A study of Mus musculus with 4 samples.

Results

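Chromatin accessibility at 10 genes of the NF-κB pathway was examined in large peritoneal macrophages (LPMs) by ATAC-seq, an assay in which the transposase Tn5 cuts and tags open DNA. The genes were those of the 5 subunits (Nfkb1, Nfkb2, Rel, Rela and Relb) and 5 inhibitors and regulators that NF-κB induces or that act on it (Nfkbia, Nfkbie, Nfkbiz, Bcl3 and Tnfaip3). Peaks of the 4 libraries that overlapped by at least 1 bp were joined into regions. A region was assigned to a gene when the gene's transcription start site (TSS) was the nearest to its midpoint, or when it overlapped the gene body. This gave 92 of 70744 regions. The rule used position and no accessibility value, and it may assign to a gene a distant region that acts on another.

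The cells were sorted from the peritoneal cavity of C57BL/6 mice 9 weeks old, 40000 cells a library. The control genotype, Rxrab fl/fl, carries loxP-flanked Rxra and Rxrb, which encode retinoid X receptors. LysMCre+ Rxrab fl/fl carries the same alleles and a Cre recombinase driven by the lysozyme M locus, which acts in myeloid cells. Below, Rxrab fl/fl is called control and LysMCre+ Rxrab fl/fl is called LysMCre+. The 2 control libraries carry the replicate numbers 1 and 3, and the 2 LysMCre+ libraries carry 1 and 2. The labels do not state whether the libraries of a genotype came from separate mice, so p-values measure only the spread between these libraries. By the study's own statement, samples that did not cluster with their group were left out, which can narrow that spread. Fewer cells with an open region and less opening per cell cannot be told apart in such bulk samples.

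NF-κB is a family of dimeric transcription factors that drive inflammatory genes in macrophages. Nfkb1 and Nfkb2 encode precursors (p105 and p100) that are processed to DNA-binding subunits (p50 and p52), and Rel, Rela and Relb encode the subunits with a transactivation domain. In resting cells IκB proteins such as those of Nfkbia and Nfkbie hold the dimers in the cytoplasm. Bcl3 and Nfkbiz encode nuclear IκB proteins, and Tnfaip3 encodes A20, a ubiquitin-editing enzyme that dampens signalling to NF-κB. Several of these genes are themselves NF-κB targets, which closes a feedback loop.

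Every one of the 10 genes had a region over a TSS that was called in all 4 libraries. Over all 24963 annotated autosomal genes, 34.1% did. In each of the 10 genes the TSS region also held at least 1 match to the κB motif, the sequence that NF-κB dimers bind, on either strand. The match nearest to the TSS of each gene is shown here because it is what the 10 promoters share. Each line gives 30 bases of GRCm38 (mm10) on the strand of the gene, with the match in capitals.

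Nfkb1, 36 bases downstream of the TSS, chr3:135691497-135691526, minus strand: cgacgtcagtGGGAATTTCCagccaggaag
Nfkb2, 7 bases upstream, chr19:46304716-46304745, plus strand: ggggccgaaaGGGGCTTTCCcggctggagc
Rel, 86 bases upstream, chr11:23771041-23771070, minus strand: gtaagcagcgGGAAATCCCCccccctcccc
Rela, 361 bases downstream, chr19:5637888-5637917, plus strand: ggcctgcggcGGAATCTCCCccctccccgc
Relb, 19 bases upstream, chr7:19629443-19629472, minus strand: cggcggcgccGGGGAATTCCgccgccccgc
Nfkbia, 24 bases upstream, chr12:55492657-55492686, minus strand: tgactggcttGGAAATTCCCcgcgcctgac
Nfkbie, 102 bases upstream, chr17:45555584-45555613, plus strand: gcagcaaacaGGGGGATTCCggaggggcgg
Nfkbiz, 223 bases upstream, chr16:55838850-55838879, minus strand: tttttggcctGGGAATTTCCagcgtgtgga
Bcl3, 7 bases downstream, chr7:19822734-19822763, minus strand: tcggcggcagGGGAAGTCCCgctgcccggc
Tnfaip3, 7 bases upstream, chr10:19015403-19015432, minus strand: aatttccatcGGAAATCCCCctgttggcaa

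In 9 of the 10 genes this match lay within 250 bases before or 50 bases after a TSS, and Rela was the exception. A window of that size around any TSS held a match in 5.55% of all genes and in 6.19% of the 8501 genes with a TSS region in all 4 libraries. With 500 bases on either side, all 10 genes had a match, against 16.8% of all genes and 19.5% of the 8501. Nfkb2 had 3 matches in both windows, a number that 0.0761% of all genes reached in the smaller one. With a looser κB pattern the counts of the 10 genes were the same, and the shares of all genes were 13.6% in the smaller window and 36.1% in the larger. A match describes letters in the reference genome and does not show that NF-κB was bound in these cells.

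The 3 promoters with separate matches close to the TSS are given below as the 250 bases before the most upstream TSS, again on the strand of the gene and with κB matches in capitals. In Nfkb2 the longer run of capitals is a pair of overlapping matches.

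Nfkb2, chr19:46304487-46304736, plus strand: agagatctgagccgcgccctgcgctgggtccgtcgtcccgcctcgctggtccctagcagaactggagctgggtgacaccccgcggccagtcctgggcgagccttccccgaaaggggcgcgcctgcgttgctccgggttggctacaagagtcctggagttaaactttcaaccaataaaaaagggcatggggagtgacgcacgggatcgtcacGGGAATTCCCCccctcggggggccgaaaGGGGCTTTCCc
Relb, chr7:19629439-19629688, minus strand: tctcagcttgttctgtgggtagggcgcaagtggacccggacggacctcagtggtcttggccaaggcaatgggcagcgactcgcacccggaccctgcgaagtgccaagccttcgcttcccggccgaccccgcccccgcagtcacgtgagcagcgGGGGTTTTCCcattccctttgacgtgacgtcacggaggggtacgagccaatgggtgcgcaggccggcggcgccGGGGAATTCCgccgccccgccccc
Tnfaip3, chr10:19015411-19015660, minus strand: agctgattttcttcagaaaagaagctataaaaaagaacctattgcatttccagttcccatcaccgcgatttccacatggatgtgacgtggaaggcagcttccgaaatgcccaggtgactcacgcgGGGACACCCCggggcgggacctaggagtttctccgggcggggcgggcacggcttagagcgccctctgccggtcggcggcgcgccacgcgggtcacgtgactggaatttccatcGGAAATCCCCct

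The libraries differed in what they could show. They held 38048 and 16097 peaks in control replicates 1 and 3, and 65421 and 55581 peaks in LysMCre+ replicates 1 and 2. The lowest local background of a peak, a value that rises with sequencing depth, was 1.97 and 1.06 tags in control and 1.33 and 1.08 in LysMCre+. Of 10 marker genes of LPMs, 7 to 9 had a promoter peak in a library, Gata6, Icam2 and Timd4 among those in all 4, and Csf1r in none. Of 8 markers of small peritoneal and monocyte-derived macrophages, 3 and 1 had one in control and 7 and 6 in LysMCre+, a difference that moved with the number of peaks and whose part in the results below was not tested. T cell, mast cell and mesothelial markers had none, and B cell and neutrophil markers at most 2 of 6 in a library. The TSS region of Rxra was called in all 4 libraries, with fold enrichments of 6.43 and 5.77 in control and 10.4 and 7.27 in LysMCre+. That of Rxrb had 8.36 and 5.71 in control and 7.17 and 4.79 in LysMCre+. Accessibility at the TSS does not report the deletion, so it was no check of the genotype.

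Values are given for each region in the order control replicates 1 and 3, then LysMCre+ replicates 1 and 2. The fold enrichment is the ratio of tags at the summit to the local background, as deposited. The pileup is the whole number of tags at the summit, worked out here from the enrichment and p-value of each peak, and it is not scaled to depth. For tests both were put on a log2 scale and centred on the median of each library, and a log2 change is LysMCre+ minus control. A region was called changed at an adjusted p under 0.05 in limma, over all regions called in all 4 libraries, with a log2 change past 1.

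The TSS regions of the subunit genes were open in both genotypes. Relb, a subunit of the non-canonical pathway, had the highest, with fold enrichments of 19.6, 14.7, 19.4 and 18.4 at chr7:19628301-19629587. Its summit lay in the first kilobase of the gene rather than at the κB matches of the promoter, and control replicate 3 was the lowest of the 4 libraries. The change was −0.21 (SE 0.235, adjusted p = 0.619 from limma). Averaged over the libraries as a geometric mean, the fold enrichment of 17.9 exceeded that of 84.2% of all TSS regions called in all 4 libraries.

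Rela, which encodes p65, followed with 18.3, 9.71, 16.9 and 14.9 at chr19:5637047-5638076. Replicate 3 of control again stood below the rest, and the genotypes overlapped. After centring they did not, with control at 0.34 and 0.37 and LysMCre+ at 0.16 and 0.31 on the log2 scale. The change was −0.12 (SE 0.207, adjusted p = 0.769 from limma). A broad region of 1172 bp 11.7 kb downstream of the Rela TSS, beyond the end of the gene, was likewise called in all 4, with 14.2, 7.71, 17.0 and 11.2. It held 1 κB match.

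Nfkb2 had 3 TSS regions. The first, chr19:46304221-46305018, had 12.7, 10.3, 13.0 and 12.8, with a change of −0.20 (SE 0.248, adjusted p = 0.661 from limma). Here both LysMCre+ libraries lay just above both control libraries, and after centring the groups overlapped. The second, chr19:46305467-46305849, overlapped an Nfkb2 TSS, but its midpoint lay nearest to the TSS of 4833438C02Rik. It had 7.08, 5.93, 5.10 and 4.73, so that both control libraries lay above both others. Its change of −0.77 did not pass the test (SE 0.249, adjusted p = 0.113 from limma). The third, chr19:46305929-46306225, lay just beyond the second and was called only in LysMCre+, at 4.92 and 2.77.

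Rel, the c-Rel subunit, had 11.4, 8.61, 10.7 and 9.50 over its TSS at chr11:23770622-23771621. The groups overlapped, and the change was −0.34 (SE 0.232, adjusted p = 0.397 from limma). Nfkb1 had 11.1, 7.19, 10.5 and 6.504 at chr3:135690590-135691782. Here replicate 1 of each genotype was high and the other library low. After centring, control stood at −0.38 and −0.06 and LysMCre+ at −0.53 and −0.89, with no overlap, and the change was −0.49 (SE 0.225, adjusted p = 0.226 from limma).

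Among the inhibitors, the TSS regions ranged from Tnfaip3 down to Bcl3. At Nfkbia, the gene of IκBα, the fold enrichment was 10.0, 9.62, 9.90 and 9.91 at chr12:55491779-55492971, the most even of the set before centring. After centring the change was −0.36 (SE 0.276, adjusted p = 0.461 from limma), and without centring it was 0.01. This region was 1193 bp wide and held 5 κB matches, of which a pair overlapped.

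Nfkbie, the gene of IκBε, had 8.54, 7.98, 7.04 and 6.46 at chr17:45555436-45556067. Both control libraries lay above both LysMCre+ libraries, but the change of −0.66 did not pass the test (SE 0.266, adjusted p = 0.176 from limma). With control replicate 1 left out, this region and the second Nfkb2 region passed, at −1.08 and −1.11. The control arm then was 1 library, assumed to vary like the others, and 540 of 15224 regions passed as lower, against 7 of 15199 with all libraries.

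Nfkbiz, the gene of IκBζ, had a region over each of its 2 TSSs. The upstream one, chr16:55838519-55839522, had 12.7, 7.10, 14.6 and 11.2, and the downstream one, chr16:55821687-55822699, had 11.3, 9.74, 13.2 and 10.1. Neither passed the test, with changes of 0.06 (SE 0.206, adjusted p = 0.888 from limma) and −0.23 (SE 0.250, adjusted p = 0.603 from limma).

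Bcl3 had the weakest TSS region of the set, with 5.20, 4.27, 6.84 and 5.31 at chr7:19822616-19823038. It exceeded 0.913% of all TSS regions called in all 4 libraries. Both LysMCre+ libraries lay above both control libraries, and after centring the groups overlapped. The change at Bcl3 was −0.01 (SE 0.242, adjusted p = 0.982 from limma). Tnfaip3 had 15.1, 10.6, 15.1 and 10.5 at chr10:19015021-19015821, where each genotype had a high and a low library. After centring, control stood at 0.06 and 0.50 and LysMCre+ at −0.01 and −0.19, with no overlap. The change in fold enrichment was −0.38 (SE 0.225, adjusted p = 0.335 from limma).

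By geometric mean the order was Relb (17.9), Rela (14.6), Tnfaip3 (12.6), the first region of Nfkb2 (12.1), both Nfkbiz regions (11.0), Rel (10.0), Nfkbia (9.87), Nfkb1 (8.60), Nfkbie (7.46), the second region of Nfkb2 (5.64) and Bcl3 (5.33). Of the 11 steps between neighbours, 1 was larger than the SD over the 4 libraries of either neighbour, that from Relb to Rela. The other steps did not exceed that SD, which takes no account of neighbours being measured in the same libraries. Among them, Nfkbie lay above the second region of Nfkb2 in every library.

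**Figure D1:**
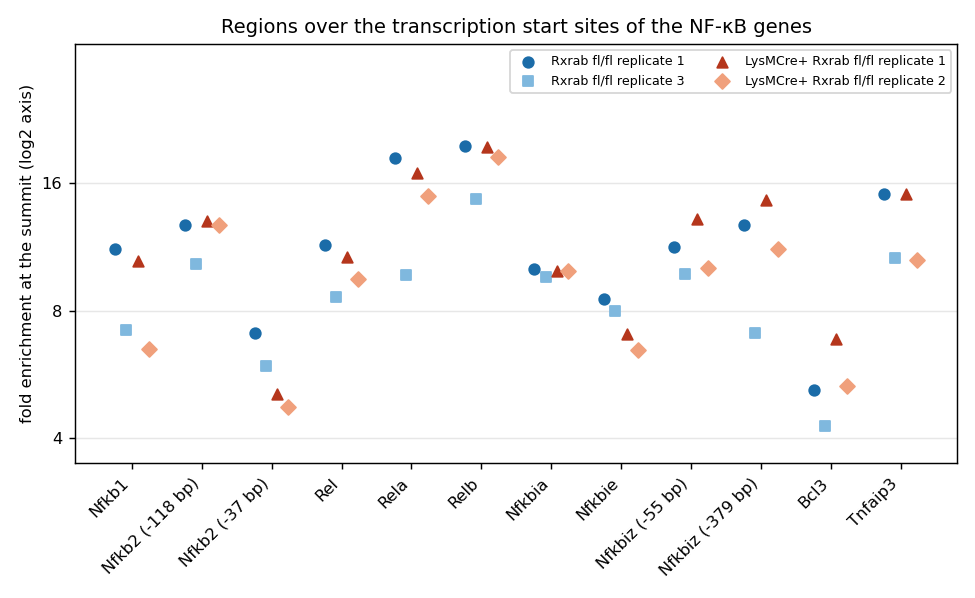
Fold enrichment at the summit (log2 axis) of the 12 TSS regions of the NF-κB genes called in all 4 libraries, with a point for each library. Distances of region midpoints from the TSS distinguish regions of the same gene. Relb and Rela stood highest and Bcl3 lowest. On these uncentred values both LysMCre+ libraries lay below both control libraries at the second Nfkb2 region and at Nfkbie. They lay above them at the first Nfkb2 region and at Bcl3.

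Beyond the TSS, the genes differed in how many regions surrounded them. Nfkbiz had 23, Nfkb1 16, Nfkbia 13, Tnfaip3 11, Rel and Bcl3 7 each, Nfkb2 5, Rela 4, and Relb and Nfkbie 3 each. At Nfkb1, the longest of the genes at 106.893 kb, 13 of the 16 regions overlapped the gene body. At Nfkbia the gene spans 3.239 kb and 1 of the 13 regions overlapped it, so that most lay between genes on the downstream side. At Nfkbiz the regions extended to 158 kb downstream of a TSS. Bcl3 had 6 of its 7 regions called in all 4 libraries. Those 4.15, 5.22 and 6.28 kb downstream overlapped the Bcl3 gene but lay nearest to the TSS of Gm16174.

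Taking the geometric mean over the libraries in which a region was called, the strongest region was the TSS region for Nfkb2, Rel, Rela, Relb and Nfkbie, and a distal region for the other 5 genes. At Nfkbia it lay 18.6 kb downstream of the TSS, chr12:55473556-55474469, with 21.7, 15.03, 19.6 and 12.5. At Nfkbiz it lay 123 kb downstream, chr16:55698383-55699041, with 19.1, 11.6, 21.8 and 17.0. Both exceeded the TSS region of their own gene in every library.

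At Tnfaip3 the strongest lay 18.5 kb upstream, chr10:19033658-19034130, with 14.6, 17.4 and 14.5, and it was not called in control replicate 3. In control replicate 1 it lay below the TSS region, which had 15.1 there. At Bcl3 it lay 8.36 kb upstream, chr7:19830686-19831549, with 16.5, 11.4, 16.7 and 17.2, in each library more than 2 times the TSS region. At Nfkb1 it lay 8.26 kb upstream and was called only in LysMCre+, at 10.3 and 12.8. The Nfkb1 TSS region had 11.1 and 7.19 in control and 10.5 in LysMCre+ replicate 1. For Tnfaip3 and Nfkb1 the mean of the distal region thus omits libraries without a call.

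**Figure D2:**
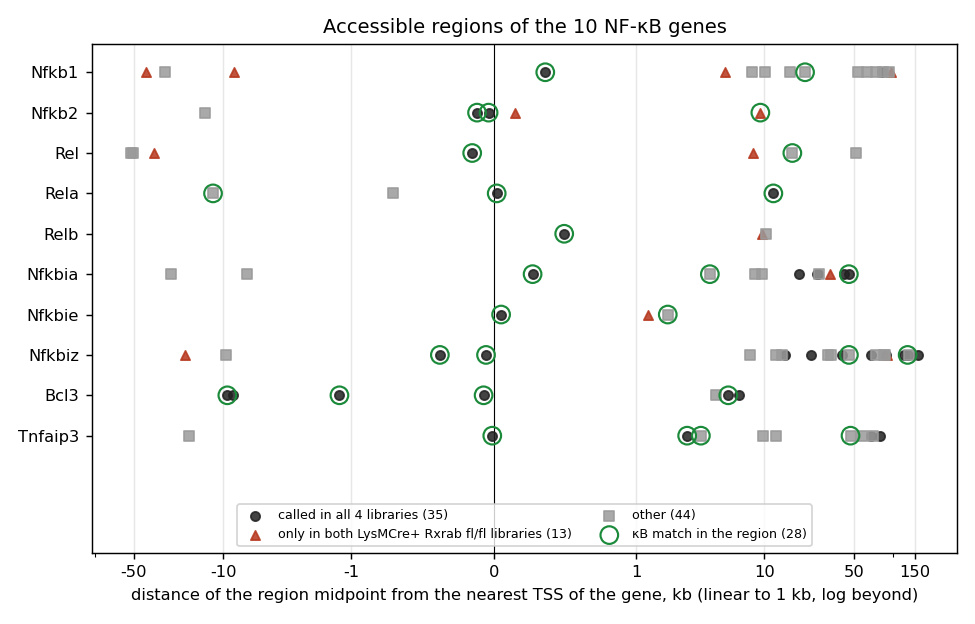
Each symbol is a merged region, placed by the distance of its midpoint from the nearest TSS of its gene in kb (linear to 1 kb and logarithmic beyond, downstream to the right). Circles were called in all 4 libraries (35), triangles only in both LysMCre+ libraries (13), and squares in another combination (44). Green rings mark the 28 regions with a κB match, among them 12 of the 13 TSS regions.

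The κB motif was also found away from the promoters. Within 100 bp of the strongest summit, 14 of the 92 regions held a match, 15.2% (95% Wilson interval 9.29 to 23.9%), against 3.38% of all regions. With the looser pattern it was again 15.2%, against 7.91% of all regions. For regions that did not lie over the TSS of the gene it was 10 of 79, 12.7%, against 3.39% of all regions away from a TSS. Over whole regions, 28 held 43 matches of 33 different sequences, and 24 of these matches lay in TSS regions. These intervals cover counting error only.

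Motifs of other macrophage factors had shares near those of all regions. The AP-1 motif, TGANTCA, was found within 100 bp of the summit in 13.0% of the 92 regions and in 12.7% of all. For PU.1, a factor that defines macrophages, the letters searched were GAGGAAG and the shares were 22.8 and 21.8%. For C/EBP factors they were TTGCNNAA, with 13.0 and 11.1%. The letters searched for GATA factors, to which the LPM regulator Gata6 belongs, were AGATAA, found in 5.43% of the 92 regions and 6.44% of all. All were searched on either strand. The motif of interferon regulatory factors had no match within 100 bp in the 92 regions, and 3.0% of all regions held one. The same was true of the DR1 and DR5 elements of retinoid X receptor dimers, held by 0.164 and 0.151% of all regions. For 0 of 92 the 95% Wilson interval reaches 4.01%, so 92 regions were too few to show a lower share for any of the 3.

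**Figure D3:**
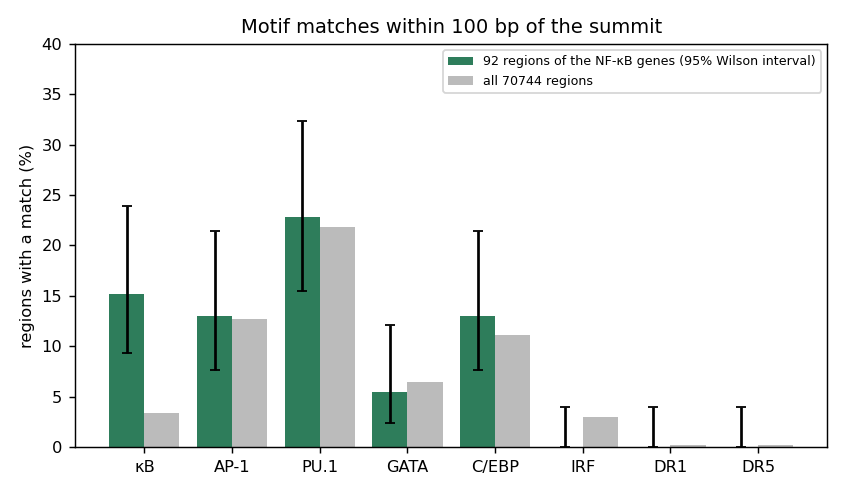
Share of regions (%) with a motif match within 100 bp of the strongest summit, for the 92 regions of the NF-κB genes with 95% Wilson intervals and for all 70744 regions. For κB the interval (9.29 to 23.9%) lies above the share of all regions (3.38%), and for each other motif the interval includes the share of all regions for that motif.

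Of the 92 regions, 59 and 36 were called in control and 82 and 74 in LysMCre+. As a share of the regions of each library this was 0.160 and 0.233% in control and 0.128 and 0.135% in LysMCre+, so that the order of the genotypes turned. A two-sided exact permutation test of the shares gave p = 0.333, the smallest p that 2 against 2 libraries allow. All 4 libraries called 35 of the 92 regions, 38.0%, against 21.5% of all regions.

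Only in both LysMCre+ libraries were 13 regions called, 14.1%, against 22.8% of all regions. Only in both control libraries there were 0, against 0.0452% of all regions. Of the 13, 9 were among the 35 regions of subunit genes (25.7% of the 35) and 4 among the 57 of inhibitors (7.02%). The reverse held for regions in all 4 libraries, 8 at subunit genes (22.9%) and 27 at inhibitors (47.4%). The subunit genes were thus near the shares of all regions, 22.8% only in LysMCre+ and 21.5% in all 4. The difference between subunit and inhibitor genes was not tested. None of the 13 held a κB match within 100 bp of the summit, and 1 held one elsewhere. Over all regions of this pattern 2.70% held one within 100 bp.

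Of the 4 at Nfkb1, the strongest lay 8.26 kb upstream (10.3 and 12.8 in LysMCre+ replicates 1 and 2) and 39.9 kb upstream (11.6 and 10.6), and the others were intronic. Rel had one 35.0 kb upstream (9.46 and 10.1) and one in an intron (6.88 and 8.62). Relb had one in a coding exon 9.65 kb from the TSS (9.75 and 5.88), and Nfkb2 had the TSS region given above and one 9.29 kb downstream in an intron of Psd (6.51 and 5.59).

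Among the inhibitors, Nfkbia had one 32.7 kb downstream (7.85 and 7.26) and Nfkbie one in an intron (4.08 and 4.72). Nfkbiz had one 90.9 kb downstream (7.72 and 6.51) and one 20.0 kb upstream in an intron of the neighbouring gene Nxpe3 (6.45 and 6.25). Bcl3, Tnfaip3 and Rela had none. At the summits of the 13 the pileup was 12 to 106 tags.

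The pattern turned with the number of peaks. When each library contributed its 16097 strongest peaks, 39 regions remained at the 10 genes. Of these, 0 were called only in both LysMCre+ libraries, against 7.82% of all regions. In that setting 6 were called only in both control libraries, against 7.22% of all regions, and these included the TSS regions of Nfkb1 and Nfkbie and the second of Nfkb2. The other 3 lay 25.6 kb downstream of Nfkbia and 40.1 and 131 kb downstream of Nfkbiz.

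**Figure D4:**
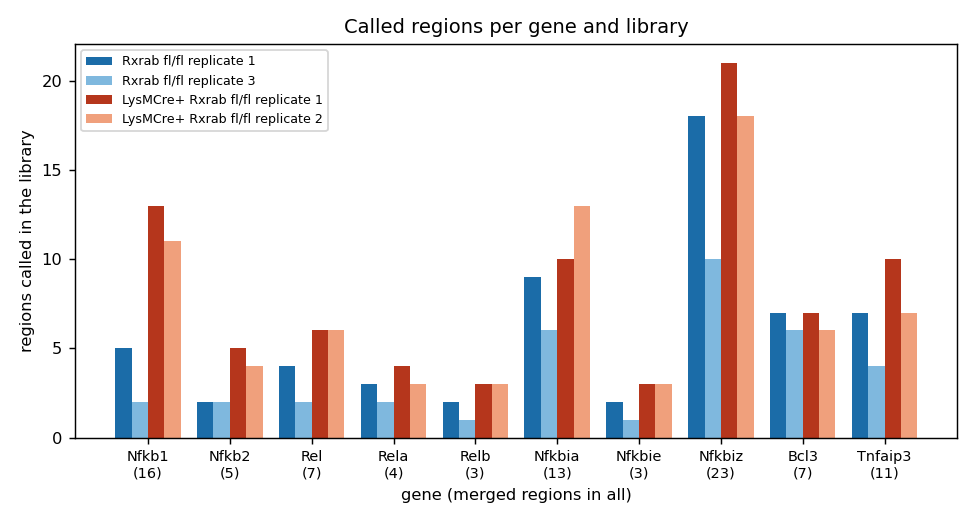
Number of regions called in each library for each gene, with the number of merged regions in brackets. The bars of LysMCre+ replicate 1 equal or exceed those of both control libraries at every gene, and those of control replicate 3 are never above the others.

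Among the 35 regions called in all 4 libraries, none passed the limma threshold in fold enrichment. Regions without a call in some library, among them those called only in LysMCre+, were not in this fit and could not count as higher. Over all regions tested, 0.0395% passed as higher and 0.0461% as lower in LysMCre+. At an unadjusted p under 0.05 in limma, 0 of the 35 were higher and 9 lower, and of all 15199 regions 1348 were higher and 1997 lower. The median change was −0.23, against −0.09 over all 15199 regions, and 28 of the 35 changes were negative, as were 8969 of all. Without control replicate 1 the medians were −0.52 and −0.15. The signs depend on centring: without it the medians were 0.14 and 0.28 and 13 of the 35 changes were negative. Centring moves all regions by the same amount, so the order of the regions does not depend on it.

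On the summit pileup, 4 of the 35 regions passed as lower in LysMCre+, against 4.54% of all regions, and 0 as higher, against 2.25%. All 4 belong to Tnfaip3 and Nfkbiz, and none of the 4 passed in fold enrichment.

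The Tnfaip3 TSS region had pileups of 149, 43, 81 and 53 tags. Relative to the median of its library this was 0.61 and 1.07 on the log2 scale in control and −0.29 and −0.29 in LysMCre+, so the groups did not overlap. The change was −1.13 (SE 0.237, adjusted p = 0.0280 from limma). Of all regions over a TSS, 4.63% passed as lower.

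The region 68.4 kb downstream of the Tnfaip3 TSS, chr10:18943216-18943987, had 177, 37, 85 and 49 tags. Both control libraries stood at 0.86 above their medians and the others at −0.22 and −0.40. The change was −1.17 (SE 0.216, adjusted p = 0.0224 from limma).

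The region 40.1 kb downstream of the nearer Nfkbiz TSS, chr16:55781815-55782249, had 68, 19, 27 and 17 tags. The centred values were −0.51 and −0.07 in control and −1.84 and −1.87 in LysMCre+. The change was −1.57 (SE 0.236, adjusted p = 0.0192 from limma), the largest of the 35, and the change in fold enrichment was −0.71 (SE 0.208, adjusted p = 0.0925 from limma).

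The region 131 kb downstream of the same TSS had 62, 17, 34 and 16 tags. It was −0.64 and −0.22 in control against −1.51 and −1.96 in LysMCre+. The change was −1.31 (SE 0.256, adjusted p = 0.0252 from limma). The 151 bases around the summit of the Nfkbiz region at 40.1 kb, the one with the largest change, are shown on the minus strand, that of the gene. They held no κB match.

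Nfkbiz, 40.1 kb downstream, chr16:55781986-55782136: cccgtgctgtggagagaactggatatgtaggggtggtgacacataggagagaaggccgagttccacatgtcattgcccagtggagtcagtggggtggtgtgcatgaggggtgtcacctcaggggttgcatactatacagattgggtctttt

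These 4 calls were lost without centring, where 0 of all 15196 regions passed. The changes then were −0.29 and −0.33 at Tnfaip3 and −0.73 and −0.47 at Nfkbiz. The 4 calls were also lost when either LysMCre+ library was left out, where 0 of all regions passed, although the changes then ran from −1.08 to −1.59. Leaving out control replicate 3 gave 10 lower of 52 regions, against 2707 of all 33260, and leaving out replicate 1 gave 5 of 35, against 1170 of 15222. With a library left out, the lone library of its genotype is assumed to vary like the others. Over the 35 regions the median change in pileup was −0.50, against −0.10 over all regions, and 30 of the 35 were negative, as were 8690 of all 15196. Without LysMCre+ replicate 1 the medians were −0.29 and −0.10. Both LysMCre+ libraries lay below both control libraries on the centred pileup in 19 of the 35, against 36.8% of all regions, and above them in 3, against 24.9%. On the centred fold enrichment they lay below in 14 and above in 3, against 4993 and 3395 of all 15199 regions.

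**Figure D5:**
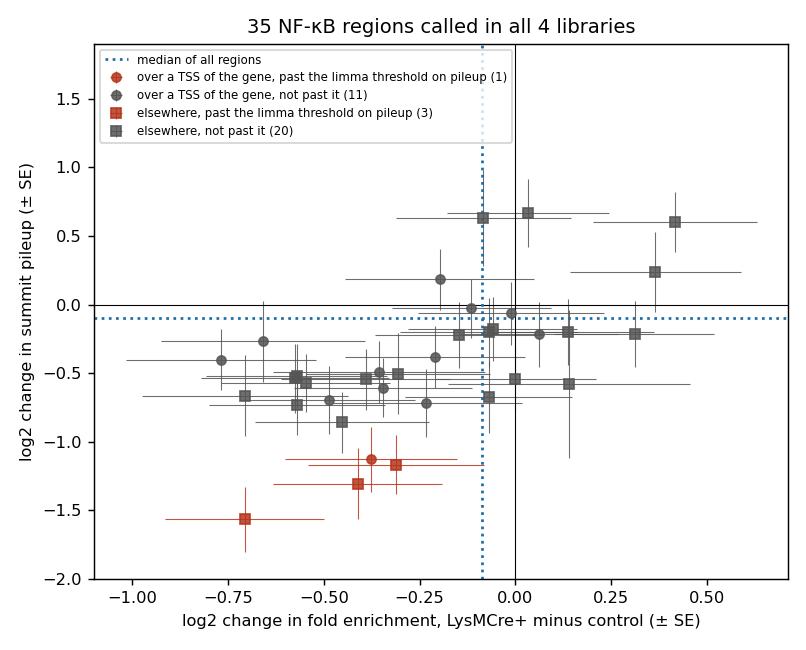
Log2 change in fold enrichment (x axis) and in summit pileup (y axis), LysMCre+ minus control, for the 35 regions called in all 4 libraries, with standard errors from limma. Dotted lines mark the medians of all regions (−0.09 and −0.10). The 4 regions past the threshold on pileup (red) lie between −1.13 and −1.57 on the y axis, and none of the 35 passed on the x axis.

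One intronic region of Nfkb1, 94.4 kb from the TSS at chr3:135596879-135597355, went the other way. It was named after its values were seen. Its fold enrichment was 4.97 in control replicate 1 and 13.6 and 11.3 in LysMCre+, and it was not called in control replicate 3. The pileups were 15, 48 and 38 tags. In the fit over regions called in at least 2 libraries, where its control arm was 1 library, it was 1 of 2 regions of these genes that passed as higher, and in that fit 2750 of 35577 regions of the series did so.

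The rest of the pathway was examined in 3 lists of genes. Of 28 kinases and adaptors that signal to NF-κB, 23 had a TSS region in all 4 libraries, and all had a region. Of 17 other inhibitors and deubiquitinases it was 11. Of 36 well-known NF-κB targets it was 19, and Tnf, Il1b, Nos2 and Ptgs2 were among those without. A TSS region called in fewer than 4 libraries counted as absent here. Over all annotated autosomal genes 34.1% had one in all 4. None of the genes of the 3 lists had a region past the limma threshold in fold enrichment. On the pileup, 3 genes of the first list had a region that was higher in LysMCre+ and 3 one that was lower. It was 1 higher and 0 lower in the second list, and 0 higher and 2 lower in the third. The lists had 51, 23 and 71 regions called in all 4 libraries, and over all regions 2.25% were higher and 4.54% lower. The median change in fold enrichment was −0.12, −0.16 and −0.27 in the 3 lists, against −0.09 over all regions, and that in pileup −0.26, −0.04 and −0.16, against −0.10.

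The 6 with the smallest adjusted p on the pileup were Ikbke, Cd44, Irak3, Malt1, Tab2 and Traf5. Near Ikbke, an IκB kinase relative, a region 14.7 kb upstream had 63, 10, 142 and 94 tags, a change of 1.29 (adjusted p = 0.0211 from limma). At 14.0 kb downstream of the TSS of Traf5, an adaptor of tumour necrosis factor receptors, there were 104, 16, 186 and 132 tags, a change of 1.06 (adjusted p = 0.0308 from limma). These 2 were higher in LysMCre+.

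The other 4 were lower. The TSS region of Irak3, which encodes an inhibitory kinase of Toll-like receptor signalling, had 116, 30, 50 and 41 tags, a change of −1.22 (adjusted p = 0.0247 from limma). The TSS region of Malt1, a paracaspase, had 343, 87, 187 and 118 tags, a change of −1.06 (adjusted p = 0.0276 from limma). A region 54.0 kb upstream of Tab2, an adaptor of the kinase TAK1, changed by −1.03 (adjusted p = 0.0292 from limma). A region 40.6 kb upstream of Cd44, an adhesion receptor, changed by −1.37 (adjusted p = 0.0211 from limma). Like the 4 regions of Tnfaip3 and Nfkbiz, none of these passed in fold enrichment.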

How the data were processed

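ATAC-seq peak lists of 4 libraries of sorted mouse LPMs were used. The authors trimmed reads with cutadapt, aligned them to mm10 with Bowtie2, discarded duplicate and poorly mapped reads as well as those of mitochondrial or sex-chromosome origin, and ran MACS2 2.1.1 on each library at a q value of 0.05. The deposited fold enrichment is a linear ratio of tags at the summit to the local background. The deposited −log10 p-values were used with it to solve the pileup, and the deposited −log10 q values to tighten the threshold. The deposited integer score was not used. Reads per region were not analysed here, so the edgeR test of the study was not repeated.

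Regions were placed on 43783 RefSeq curated transcripts of GRCm38, the build of the files. Log2 fold enrichment, and log2 of the pileup plus 1, were fitted in R 4.3.3 by lmFit and eBayes of limma 3.58.1 (Benjamini-Hochberg adjustment over all regions tested). The fits, the pileup solution and motif matching were tested on simulated data. The pileup was solved for 99.9969% of the peaks of a library or more. Motifs were searched on both strands, overlapping matches counted separately.

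The 10 genes, the lists and the tests were chosen with earlier results of these data known. By rule the text names, for each gene, the TSS regions, the strongest region, regions past the limma threshold and regions called in both libraries of 1 genotype only, and of the lists the 6 genes with the smallest adjusted p past the threshold. For the lists, 3 genes on the X chromosome (Ikbkg, Tab3 and Irak1) could not be measured. Alternatives were other thresholds, merging rules, normalizations and windows, and each library left out. Those for the pileup were chosen after seeing the data. The software was Python 3.11.15 with matplotlib 3.10.9, pandas 2.3.3, scipy 1.17.1 and numpy 2.4.6. The sequence of 1 region is not reported here.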

Additional observations from a re-analysis of the deposited data

How the results depend on the processing

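No paired analysis was run, because the labels do not state that any control library forms a pair with a LysMCre+ library. The genotypes share only replicate number 1. Groups of 2 libraries limit every test, and the pileup carries the depth of its library. By fold enrichment, 0 regions were called higher or lower; 2 passed as higher among the 58 called in at least 2 libraries, and 4 as lower on the summit pileup. Leaving out single libraries gave 0 to 1 higher (1 without control replicate 3) and 0 to 2 lower (2 without control replicate 1). On the pileup it gave 0 to 1 higher and 0 to 10 lower in place of 4, with 10 without control replicate 3 and 0 without either LysMCre+ library. Without centring 0 were lower, as were 0 of all regions. Regions called only in both LysMCre+ libraries numbered 13, and 0 when equal numbers of peaks were taken per library. They numbered 13 to 30 with a library left out, 30 without control replicate 1, and 21 and 25 without LysMCre+ replicates 1 and 2. As shares the last 3 counts were 33.0, 26.25 and 29.8%, below the 49.2, 36.1 and 44.0% of all regions in the same settings. Regions called only in control went from 0 to 6 at equal numbers of peaks, and to 0 to 1 with a library left out. Regions with a κB match rose from 15.2 to 30.4% over whole regions, which are wider, where all regions had 7.28%. With a looser pattern it was 15.2%, against 7.91% of all regions.

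Of 314 alternatives for named regions, 263 kept direction and side of the threshold, 12 lost the call, 4 gained one and 35 turned direction. Removing the centring adds the same amount to every region, so the turns under it come from that scaling, which moved the median of all regions from −0.09 to 0.28 in fold enrichment and from −0.10 to 0.74 in pileup. The cause of the other turns was not tested. Without centring, the change in fold enrichment became 0.17 at the first Nfkb2 TSS region, 0.023 at Rel, 0.25 at Rela, 0.16 at Relb, 0.012 at Nfkbia, 0.14 at the downstream Nfkbiz TSS and 0.36 at Bcl3. It became 0.057 at 68.4 kb from Tnfaip3, 0.37 at 123 kb from Nfkbiz and 0.30 at 8.36 kb from Bcl3. The change in pileup became 0.15 at Nfkb1, 0.44 at the second Nfkb2 TSS region, 0.24 at Rel, 0.81 at Rela, 0.46 at Relb, 0.35 at Nfkbia, 0.57 at Nfkbie, 0.12 and 0.62 at the downstream and upstream Nfkbiz TSS and 0.78 at Bcl3. It became 0.11 at 18.6 kb from Nfkbia, 0.30 at 123 kb from Nfkbiz and 0.64 at 8.36 kb from Bcl3. With quantile normalization, fold enrichment changed by 0.27 at the Bcl3 TSS and 0.082 at 123 kb from Nfkbiz, and pileup by 0.060 at Rela. Among the stronger regions alone the Nfkbiz region at 123 kb changed by 0.047. With each library left out, the change in fold enrichment ran from −0.22 to 0.088 at the upstream Nfkbiz TSS, −0.34 to 0.0054 at the Bcl3 TSS, −0.22 to 0.014 at 123 kb from Nfkbiz and −0.28 to 0.12 at 8.36 kb from Bcl3. That in pileup ran from −0.12 to 0.29 at the first Nfkb2 TSS region, −0.51 to 0.058 at Rela, −0.36 to 0.089 at the Bcl3 TSS and −0.73 to 0.060 at 8.36 kb from Bcl3.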
